A study of Rattus norvegicus with 15 samples.

Results

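The comparison of whole blood 12 h after clot induction with whole blood 6 h after it was examined across 10050 transcript features of the 17599 in the deposited table. These are the features with a normalised read count of at least 10 in 3 or more of the 6 libraries compared, and 7996 of them carry annotated IDs while 2054 are gene models assembled from the reads. The remaining 7549 features stayed under that limit. The feature nearest to it from below had a third-highest value of 9.72 and the nearest from above 10.01.

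The samples are from outbred Sprague-Dawley rats, all male and aged 6 to 8 weeks, studied as a model of deep venous thrombosis (clotting in a deep vein). The labels give the hours after modelling but not how the clot was made, and they number the replicates without naming animals, so the spread behind each p-value is that between samples and may be technical. The 6 h and 12 h groups hold 3 libraries each and carry the same run label, C. Of the 15 libraries of the series, the sham group, which the labels place at 0 h, and the 1 h and 72 h groups carry the run label A&B.

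As background, thrombus formation joins coagulation, in which fibrin is laid down, with the activation of platelets and leukocytes. Whole blood holds all of these cells at once, and its RNA comes largely from young red cells that still carry globin messages, with leukocytes and platelets adding the rest. In such a bulk sample, fewer cells of a type and less RNA per cell cannot be told apart. The file does not pair its IDs with gene names and the reference table matched 0 of them, so features are described by abundance, kind, direction and library, the markers of blood cell types could not be read, and no sequence is shown.

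The libraries of the comparison held 31.8 to 43.3 M recovered reads (mega-reads), of which 5.49 to 7.65 M lay outside the 5 assembled features that dominate each library. These 5 features took 84.5%, 82.6% and 80.6% of reads in 6 h replicates 1, 2 and 3 and 83.3%, 82.7% and 79.3% in the corresponding 12 h libraries. The factor by which the reads had been divided was 0.729, 0.886 and 1.40 at 6 h and 0.782, 0.584 and 2.67 at 12 h. Replicate 3 of 12 h therefore stands apart from both other 12 h libraries, and the comparison is given with and without it.

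Replicate 3 of 12 h resembled 6 h replicate 3 more than it resembled its own group, but not the other 6 h libraries. On the log2(value + 1) scale its correlation across features was 0.897 with 6 h replicate 3, against 0.820 with 12 h replicate 1 and 0.774 with 12 h replicate 2. With 6 h replicates 1 and 2 it was 0.799 and 0.823. Between 12 h replicates 1 and 2 the correlation was 0.895, and among the 6 h libraries it was 0.878 to 0.915. Features are not independent replicates, and these correlations are a description. Differences of more than 2-fold separated 12 h replicate 3 from 12 h replicate 2 at 51.7% of features and from 6 h replicate 3 at 23.2%. The share was 45.0% from 12 h replicate 1, and 46.2% and 41.5% from 6 h replicates 1 and 2. Of the 10050 features, 29.6% had their highest value of the 6 libraries in 12 h replicate 3 and 26.1% had their lowest value there. No other library held more than 20.9% at either end.

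The departure of this library followed the abundance of the feature. The features were split into 4 classes of equal size by their mean value. In the lowest class its median log2 difference from the mean of the 6 h libraries was 0.36, where 12 h replicates 1 and 2 had -0.05 and -0.11. In the highest class it was -0.73, against 0.10 and 0.28. For the 100 most abundant features it reached -1.78, while 12 h replicates 1 and 2 lay at 0.20 and 0.59. A slope of the same direction and smaller size was present in 6 h replicate 3, which lay 0.38 above the mean of the other 6 h libraries in the lowest class and -0.91 from it for the 100 most abundant features. The library factor is the second-highest and the highest of the 6 in these libraries. Its part in the pattern was not tested.

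**Figure D1:**
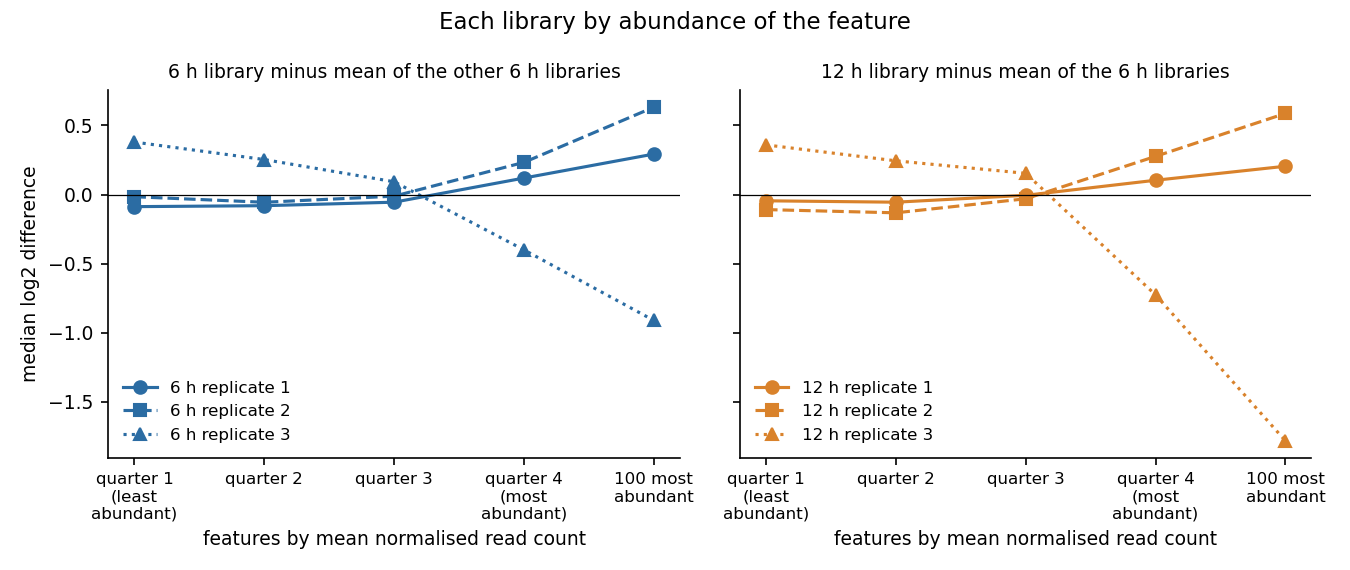
Median log2 difference (y axis) of each 6 h library from the mean of the other 6 h libraries (left) and of each 12 h library from the mean of the 6 h libraries (right), for 4 equal classes of features by abundance and for the 100 most abundant (x axis). Replicate 3 of both times runs from above 0 in the lowest class to below 0 in the highest, and for the 100 most abundant features reaches -0.91 at 6 h and -1.78 at 12 h.

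The reads outside the 5 dominant features were less concentrated in 12 h replicate 3. The 100 most abundant of the other features were taken anew in each library. They are thus not the fixed 100 features above, which include the 5 dominant ones. They took 62.7%, 64.5% and 57.4% of these reads in 6 h replicates 1 to 3, and 62.9%, 64.9% and 42.6% in the 12 h libraries. The mean share was 61.6% ± 3.69 at 6 h against 56.8% ± 12.4 at 12 h (SD, n = 3), a difference within the spread between libraries (exact permutation test, two-sided, p = 0.9, adjusted 0.9 over 12 measures). Without 12 h replicate 3 the difference turned from -4.78 to 2.33 percentage points. Groups of 3 cannot give a p below 0.1.

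Among the 5 dominant features, the most abundant took 45.8%, 43.4% and 45.2% of reads at 6 h and 49.4%, 46.9% and 40.8% at 12 h. Replicates 1 and 2 of 12 h lay above all 6 h libraries and replicate 3 lay below them. The feature ranked 3 took 12.5%, 14.6% and 11.6% at 6 h and 6.51%, 11.8% and 14.2% at 12 h, where the lowest library is 12 h replicate 1. The smallest exact permutation p over the 12 measures of library composition was 0.5, and every adjusted value was 0.9.

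With all libraries, limma called 0 of 10050 features between 12 h and 6 h at adjusted p under 0.05 (0%, lowest adjusted p 0.171). At unadjusted p under 0.05 there were 182 features higher at 12 h (1.81%) and 180 lower (1.79%), together 3.60% of those tested. On the recovered reads, edgeR also called 0, with 201 higher and 123 lower at unadjusted p under 0.05. The split of higher and lower moved with the tool and the scaling: it was 229 higher and 91 lower in edgeR with TMM factors, and 142 and 53 in limma with equal totals outside the dominant features. The libraries of the groups did not overlap for 540 features (5.37%), of which 272 were higher at 12 h (2.71%) and 268 lower (2.67%). No overlap between groups of 3 corresponds to an exact permutation p of 0.1, so a share of this size is no sign of a difference.

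**Figure D2:**
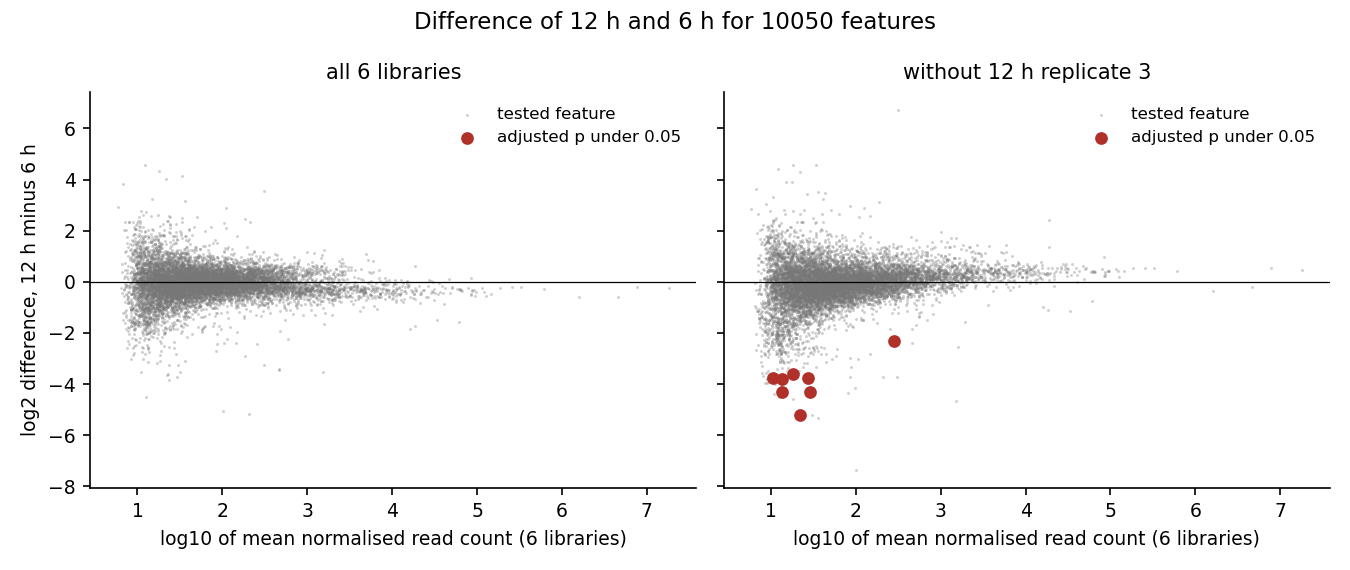
Log2 difference of 12 h and 6 h (y axis) against the log10 mean normalised read count over the 6 libraries (x axis) for 10050 features, with all libraries (left) and without 12 h replicate 3 (right); large red points are past adjusted p 0.05 in limma. No red point appears on the left and 8 on the right, all below 0, and the most abundant features move from below 0 on the left to mostly above 0 on the right.

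The size of the differences that these libraries can exclude was limited. The median 95% interval of a difference reached 1.02 log2 units to each side (median SE 0.483), and the median size of a difference was 0.33. For 2209 features (22.0%) the whole interval lay within 2-fold in either direction, and for 7883 (78.4%) it lay within 4-fold. A difference larger than 2-fold was measured at 947 features (9.42%), none of which passed the test after adjustment. Without 12 h replicate 3 the interval lay within 2-fold for 2102 features (20.9%) and within 4-fold for 7425 (73.9%), and 1494 (14.9%) differed by more than 2-fold. With all libraries, annotated and assembled features gave similar values, with intervals inside the 2-fold limits for 22.6% and 19.6% of them.

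By abundance, the counts at unadjusted p under 0.05 were spread over both directions. They were 61 higher and 72 lower in the lowest of the 4 abundance classes, 52 and 58 in the next, 46 and 33 in the next and 23 and 17 in the highest, or 5.29% of the lowest class and 1.59% of the highest. From the lowest class to the highest, the median log2 difference was -0.09, -0.06, -0.0047 and -0.12, beside -0.07 over all features. With equal library totals outside the dominant features, the medians of the lowest and the highest class were 0.11 and 0.09, so neither sign held under that scaling. With the deposited scaling the median was -0.35 for the 100 most abundant features, of which 7% were higher at 12 h, and with equal totals it was -0.16. That direction was carried by 12 h replicate 3. Without this library the same 100 features had a median of 0.40, with 92% of them higher, and the highest class had 0.19. The sign of the difference of abundant features thus turned with this library.

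The spread among the 12 h libraries rested on replicate 3. With it, the SD between the 3 libraries, on the log2 scale, had a median of 0.697 at 12 h and 0.496 at 6 h, and it was larger at 12 h for 66.3% of features. The share was 57.5% in the lowest abundance class, 79.2% in the highest and 96.0% among the 100 most abundant. In assembled features the median SD was 0.919 at 12 h against 0.524 at 6 h, and in annotated features 0.652 against 0.488. Without it the order turned by the median difference between libraries. This was 0.470 log2 units between 12 h replicates 1 and 2, less than in any pair of 6 h libraries (0.534 to 0.625). By other measures that 12 h pair was no closer. It differed by more than 2-fold at 21.8% of features, inside the 6 h range of 21.6% to 29.6%, and its correlation also lay inside the 6 h range.

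By the rule for naming, 2 features that were higher and 2 that were lower at 12 h are given by ID: those with the lowest unadjusted p among features with no overlap between the groups and with a mean at or above the median of all tested. They were picked out of 10050 for their difference, so that a low p is the result of the choice. None of them passed the test in the limma fit with all libraries.

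The annotated feature ENSRNOG00000015916 had a normalised read count of 119, 67.7 and 85.1 in 6 h replicates 1 to 3 and of 23.0, 24.0 and 22.4 in the 12 h libraries. All 12 h libraries lay within a narrow band below all 6 h libraries, and 12 h replicate 3 did not stand apart. Group means were 90.7 ± 26.2 and 23.1 ± 0.782 (SD, n = 3). The difference was -1.89 on the log2 scale (SE 0.312, 95% interval -2.55 to -1.22, limma adjusted p = 0.171). Without 12 h replicate 3 it was -1.87 (limma adjusted p = 0.0796), the feature just outside the threshold in that fit. On the recovered reads, 87, 60 and 119 at 6 h and 18, 14 and 60 at 12 h, edgeR gave an adjusted p of 0.142 and DESeq2 6.9e-05. Over the 21 alternatives the log2 difference ran from -2.08 to -1.57 and the adjusted p from 6.9e-05 to 1.00. The groups of the other run label had means of 23.9 ± 3.92 in sham, 43.7 ± 2.87 at 1 h and 25.4 ± 3.65 at 72 h (SD, n = 3), so the 6 h libraries were the highest 3 of all 15.

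The annotated feature ENSRNOG00000017819 had a count of 173, 99.3 and 157 at 6 h and of 37.1, 44.5 and 41.5 at 12 h. The groups did not overlap, and 12 h replicate 3 lay between the other two. Its log2 difference was -1.74 (SE 0.405, limma adjusted p = 0.989) with all libraries and -1.75 (limma adjusted p = 0.222) without 12 h replicate 3, and DESeq2 gave an adjusted p of 0.0495. The means were 48.5 ± 11.4 in sham, 48.9 ± 27.6 at 1 h and 91.6 ± 40.4 at 72 h (SD, n = 3). A library at 72 h reached 132, inside the range of 6 h.

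The assembled feature MSTRG.3803 had a count of 38.4, 37.3 and 41.5 at 6 h and of 122, 154 and 272 at 12 h. The 6 h libraries were close together, and the highest value at 12 h was that of replicate 3. Group means were 39.0 ± 2.19 and 183 ± 79.1 (SD, n = 3). The difference was 2.11 on the log2 scale (SE 0.483, limma adjusted p = 0.989) and 1.79 without 12 h replicate 3 (limma adjusted p = 0.261). DESeq2 gave an adjusted p of 0.0119. The mean was 184 ± 59.3 in sham, 110 ± 69.3 at 1 h and 193 ± 53.4 at 72 h (SD, n = 3). The value in 1 h replicate 1, 33.1, was below the 6 h libraries.

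The annotated feature ENSRNOG00000022807 had a count of 61.7, 20.3 and 35.8 at 6 h and of 99.8, 101 and 95.7 at 12 h. Here the spread lay at 6 h, and the 12 h libraries agreed closely. The log2 difference was 1.45 (SE 0.334, limma adjusted p = 0.989), and 1.47 without 12 h replicate 3 (limma adjusted p = 0.218). DESeq2 gave an adjusted p of 0.0809. The mean was 96.3 ± 9.05 in sham and 62.9 ± 5.44 at 1 h (SD, n = 3), and the libraries at 72 h ran from 56.4 to 83.4.

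**Figure D3:**
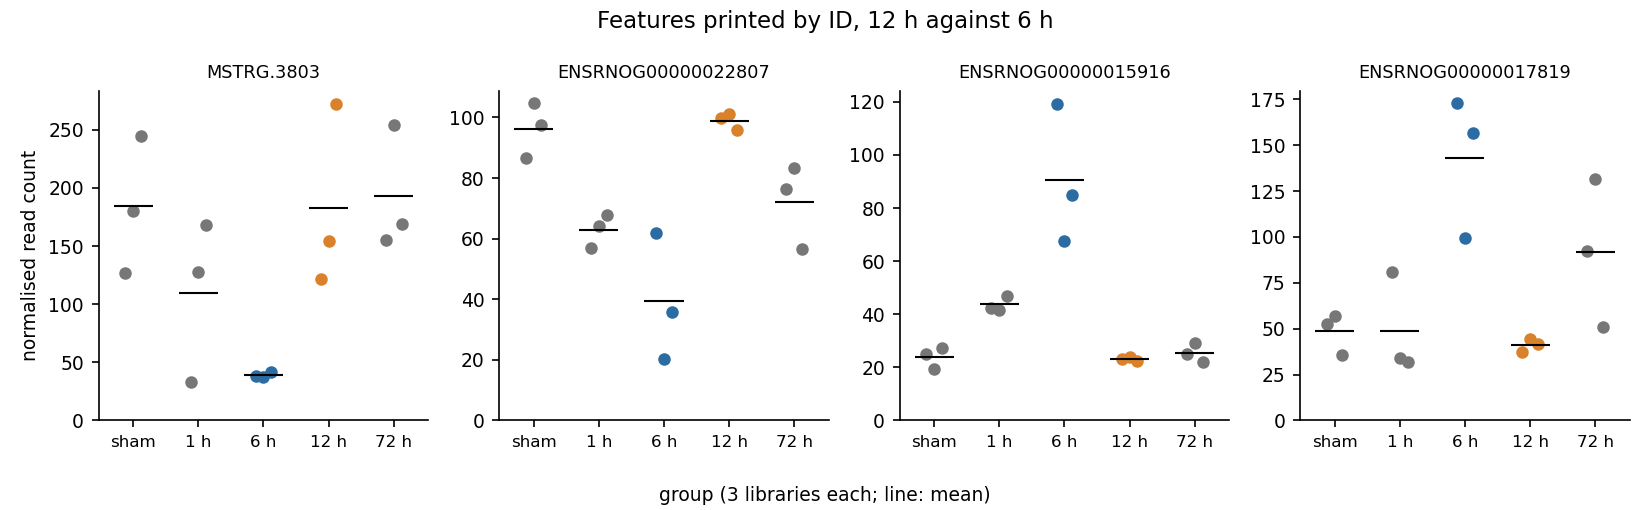
Normalised read count (y axis, linear from 0) of the features given by ID in each library of the 5 groups (x axis); points are libraries, lines are means, blue marks 6 h and orange 12 h. In each panel the 12 h libraries lie apart from the 6 h libraries, as chosen, for example at 22.4 to 24.0 against 67.7 to 119 for ENSRNOG00000015916.

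The 540 features whose groups do not overlap include many small differences. For the 272 that were higher at 12 h the log2 difference had a median of 0.85 and ran from 0.15 to 4.56, and 99 exceeded 2-fold. For the 268 that were lower the median size was 0.84, from 0.15 to 5.07, and 102 exceeded 2-fold. These values describe the choice. The other groups were not used to choose them, but they are set here against the same 6 h libraries. The values of those libraries were picked as low or as high, so that the choice in itself moves the other groups towards the side of 12 h. How much of their shift comes from the choice was not tested. Relative to the mean of 6 h, the 272 features had medians of 0.54 in sham, 0.37 at 1 h and 0.34 at 72 h, and the 268 had -0.37, -0.31 and -0.49. Over all features tested these medians were 0.0047, -0.06 and -0.06.

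**Figure D4:**
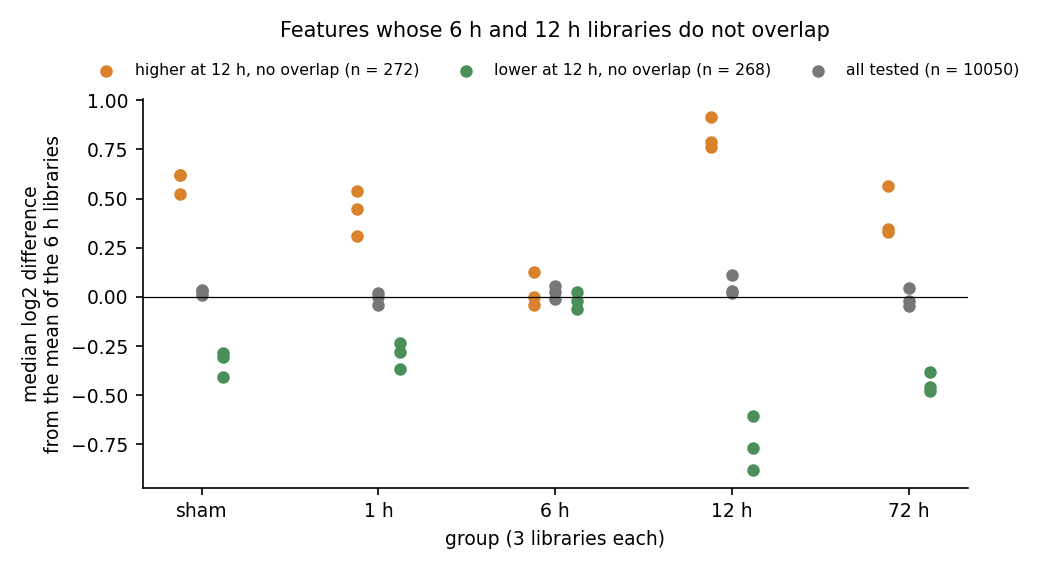
Median log2 difference from the mean of the 6 h libraries (y axis) in each of the 15 libraries by group (x axis), for the 272 features higher at 12 h, the 268 lower at 12 h, and all 10050 tested. The separation at 12 h is the choice itself, and the sham, 1 h and 72 h libraries lie between 0 and the 12 h libraries for both sets.

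Without 12 h replicate 3, limma called 8 features (0.0796% of 10050), and all 8 were lower at 12 h. At unadjusted p under 0.05 there were 307 higher (3.05%) and 622 lower (6.19%), together 9.24%. With equal totals outside the dominant features these were 86 and 569, and with a limit of 50 in place of 10 in the filter they were 209 and 220. The 3 libraries at 6 h did not overlap the remaining pair at 12 h for 2165 features (21.5%), 882 of them higher (8.78%) and 1283 lower (12.8%). A pair separates from 3 libraries more often than 3 do even where nothing differs. The rise from 5.37% with all libraries is therefore no sign of a difference. Of the 8 features, 7 were annotated and 1 was assembled, and 5 lay in the lowest of the 4 abundance classes. With the replicate number as a block, limma called 2, both among the 8, and with the block in the 6 h and 12 h libraries alone it called 5 (2 higher, 3 lower), none among the 8.

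These 8 features had reads in every 6 h library, and 7 of them had few or none in 12 h replicates 1 and 2. The filter lets a feature enter on the 3 libraries at 6 h alone but not on 12 h replicates 1 and 2 alone, and 7 of the 8 were under a value of 10 in both of the latter. A filter of 10 in 2 of the 5 libraries was added after seeing the data. Any 2 libraries at 6 h can meet it, but at 12 h only both together. Under it limma called the same 8 of 10455 features and none that was higher. Those 7 features still entered on the 6 h libraries alone, so the part of the filter in their direction was not tested. In 12 h replicate 1, 7 of the 8 had 0 reads, and 4 of the 8 had 0 reads in both. The first of them by p had 27, 38 and 40 reads at 6 h, 0 and 0 in 12 h replicates 1 and 2 and 65 in 12 h replicate 3. Its normalised read count of 36.2 ± 7.18 at 6 h (SD, n = 3) was at least 8.06-fold higher than in that pair of libraries, taking 3 reads per library as the limit that a count of 0 allows. The fitted log2 difference was -5.20 (SE 0.439, limma adjusted p = 1.6e-05) without 12 h replicate 3, and its size depends on the pseudocount. That SE draws on all groups, and in the 6 h and 12 h libraries alone it was 1.07 (limma adjusted p = 0.245). The call was kept in 18 alternatives and lost in 2, that fit and the same with the replicate block. With 12 h replicate 3, whose value of 24.3 lay below the 6 h range of 28.6 to 42.9, the difference was -3.64 (limma adjusted p = 0.989).

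The other 3 features at 0 reads in that pair had 6 h means of 18.8 ± 2.17, 13.5 ± 6.63 and 12.9 ± 0.603 (SD, n = 3). These means were at least 4.19-fold, 3.01-fold and 2.88-fold higher by the same limit. These limits cover only the counting error of the 0 counts at 12 h, and leave out the spread and counting error at 6 h. The only assembled feature of the 8 was also the most abundant of them, with 269, 294 and 451 reads at 6 h, 88 and 23 in 12 h replicates 1 and 2 and 1382 in 12 h replicate 3. Its normalised read count was 369, 332 and 323 at 6 h and 113, 39.4 and 517 at 12 h, so that 12 h replicate 3 lay above every 6 h library while both other 12 h libraries lay below them. Its log2 difference was -2.33 (SE 0.403, limma adjusted p = 0.0395) without 12 h replicate 3.

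Replicate 3 of 12 h was not low on most of these features. It had 63 to 1382 reads on each of the 8 features, and its value lay above all 6 h libraries for 5 of them, within their range for 1 and below it for 2. For those 5 it was also the highest of the 6 libraries, as it was for 29.6% of all features tested. Low features were raised in this library in general, with a median log2 difference of 0.36 in the lowest abundance class and 0.24 in the next. Relative to the mean of the 6 h libraries its log2 difference ran from -0.54 to 1.64 over the 8 features, where the fit without it gave -5.20 to -2.33. Both sets of values share the 6 h libraries. Sham means of the 8 features, under the other run label, ran from 11.8 to 458 normalised reads, beside 12.9 to 341 at 6 h. Feature by feature, sham and 6 h differed in both directions. The feature ranked 7 by p had 46.8 in sham against 12.9 at 6 h, and the feature ranked 1 had 25.0 against 36.2.

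**Figure D5:**
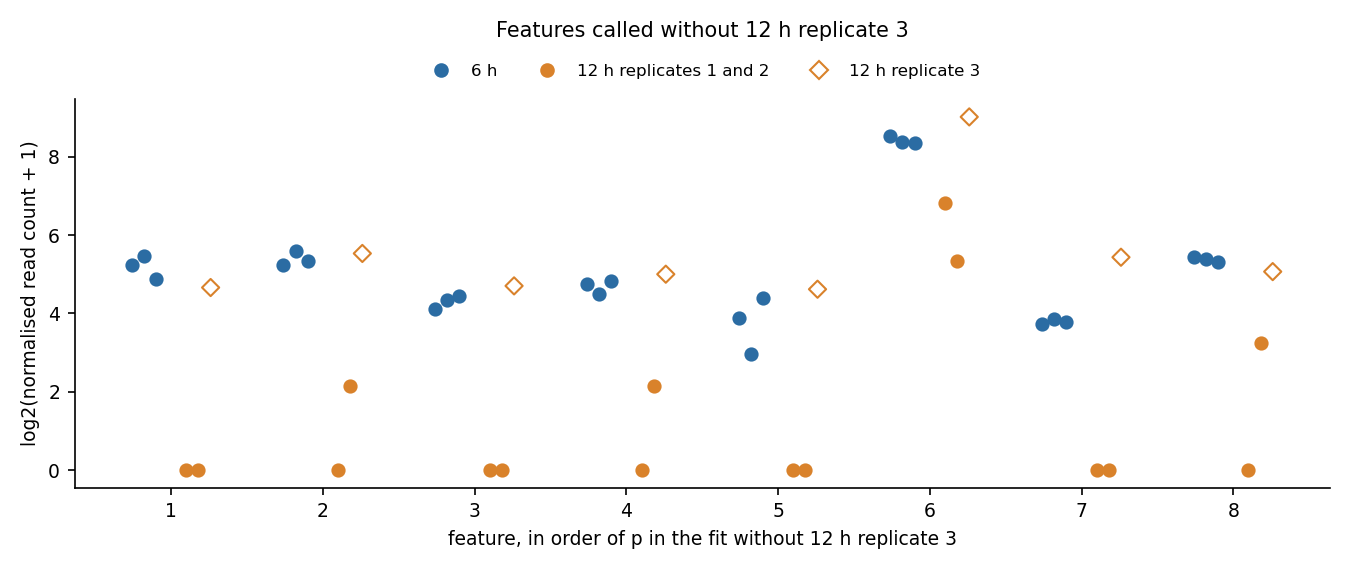
Log2(normalised read count + 1) (y axis) of the 8 features called without 12 h replicate 3 (x axis, in order of p), with filled blue points for 6 h libraries, filled orange points for 12 h replicates 1 and 2 and an open diamond for 12 h replicate 3. The filled orange points lie below the blue ones, 11 of the 16 at 0, and the diamond lies above the blue points for 5 features.

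Absence of reads was most frequent in 12 h replicate 2. Of the features tested, 356 had 0 reads in 12 h replicate 2 and 200 in 12 h replicate 1, against 40 in 12 h replicate 3 and 211, 137 and 41 in the 6 h libraries. A total of 49 features were at 0 in both 12 h replicates 1 and 2, the highest number among the 15 pairs of libraries, which ran from 4 to 49, and 48 of these 49 had reads in 12 h replicate 3. Over the 6 libraries, the number of features at 0 fell as the library factor rose, and the part of the factor in these counts was not tested. Over all 3 libraries, 1 tested feature was at 0 at 12 h and 2 were at 0 at 6 h.

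DESeq2 on the recovered reads, which was run on all features with reads and applied its own filter, called 15 between 12 h and 6 h, 8 higher and 7 lower. Of these 15 features 7 were among the 10050 and 8 were not. In 4 of the 15, more than 99% of the summed value of the 6 libraries came from a single library, such as a feature at 1450 in 6 h replicate 1 and at most 3.39 in the other libraries. Of the 7 among the features tested, 6 had groups that did not overlap, and 3 of them are ENSRNOG00000015916, ENSRNOG00000017819 and MSTRG.3803. None of the 7 passed in the limma fit of all libraries at equal weight.

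With array weights, by which limma gives each library a weight from its agreement with its group, 233 features were called between 12 h and 6 h (67 higher, 166 lower), among them all 8 of those called without 12 h replicate 3 and the 4 given by ID. The weight was 4.78 for 12 h replicate 1, the highest of all 15 libraries, and 0.466 and 0.188 for 12 h replicates 2 and 3, the lowest of all. The 12 h level in that fit is therefore set mainly by a single library.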

How the data were processed

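Messenger RNA of whole blood was measured in 15 samples, 3 in each of 5 groups; 6 h and 12 h are compared here. Bowtie 0.12.2 and the build Rnor_6.0 are named, without their role, per the submitters' processing notes; for the counting tool, annotation and strand setting nothing is stated in the sources used here, so near-identical or overlapping features cannot be told apart. The deposited signal is reads per feature that the authors divided by a factor per library, as worked out from the values: 100% lie within 0.01 of a whole multiple of 1 step, at most 0.00486 off, and median-of-ratios factors recomputed from these reads differed by at most 2.43e-09%. For sham replicate 1 the step is near 1 and its recovery is less well tested.

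Features that reached a value of 10 in 3 of the 6 libraries were tested with limma 3.58.1 (trend, robust; R 4.3.3) on log2(value + 1), two-sided, all 15 libraries in 1 fit, with Benjamini-Hochberg adjustment at 0.05, and again without 12 h replicate 3. Differences on this scale understate the change of low features. edgeR 4.0.16 and DESeq2 1.42.0 on recovered reads and other filters, pseudocounts, scalings and left-out libraries were alternatives. Functions were tested on simulated data. Members, lists and alternatives were chosen with earlier results of these data known. The 26 gene lists could not be run (0 tested), since IDs matched no symbol; 2 IDs per direction are printed instead, by the rule in the report. Deviations from the group means correlated by 0.157, 0.177 and 0.490 in same-numbered 6 h and 12 h libraries, each above the limit of 0.1 set for pairing, but by 0.173 in 6 h replicate 1 with 12 h replicate 2 as well. The labels give no pairing; the fits and permutation tests have no block unless stated, and blocked counts stand beside those they change. Between any pair of the 6 libraries chi-square per degree of freedom was 58.4 or more, so no library was a repeat of another within counting noise.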

Additional observations from a re-analysis of the deposited data

How the results depend on the processing

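Between 12 h and 6 h with all libraries, 18 of 21 alternatives also called 0 features; DESeq2 called 15 and array weights 233, and with each library left out in turn the count was 0 to 8, the 8 being without 12 h replicate 3. The replicate block changed this 0 in neither fit (404 and 356 features at unadjusted p under 0.05). With the library factor as a covariate limma also called 0, with a lowest adjusted p of 0.0613. That fit had 886 features at unadjusted p under 0.05 (392 higher, 494 lower), against 362 in the main fit. Without 12 h replicate 3 the count of 8 was kept by filters on all 15 libraries, on values above 0 and (added after seeing the data) on a value of at least 10 in 2 of the 5 libraries, with the same 8 features. It was 2 in edgeR with deposited or TMM factors, 27 in DESeq2 (9 higher, 18 lower; 5 of the 8), 1 in the 6 h and 12 h libraries alone (none of the 8), 2 with the replicate block and 5 with the block in those libraries alone, 0 with a value of at least 50 in 3 libraries (429 at unadjusted p under 0.05, 209 higher and 220 lower; 1 of the 8 entered), 2 and 3 with pseudocounts 5 and 10, 2 with quantile normalization, 2 with equal totals outside the dominant features, 4 with array weights and 2 with the library factor as a covariate. A further library left out gave 2 to 173: 49, 3 and 2 without 6 h replicates 1, 2 and 3, and 173 and 29 without 12 h replicates 1 and 2, where the lone 12 h library is assumed to vary like the other groups. All 8 features stayed lower at 12 h in each of these fits without 12 h replicate 3 that they entered, which reuse the libraries they were chosen by. With all libraries 7 of the 8 were lower in edgeR, with deposited or TMM factors, and in DESeq2. In the other alternatives with all libraries, those that entered were all lower. On the scale of equal totals the median log2 difference over all features was 0.14, and -0.33 without 12 h replicate 3. For the share of reads outside the dominant features on the 100 most abundant of each library, the difference turned only without 12 h replicate 3. It ran from -8.85 to 2.33 percentage points over the left-out libraries. The 4 features given by ID kept their direction in all 21 alternatives. Alternatives for the gene lists were not run. Depth of 5.49 to 7.65 M reads outside the dominant features limits features of few reads.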
